A study of Homo sapiens with 6 samples.

Results

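Chromatin accessibility was examined at 9 genes that lie in loci associated with type 1 diabetes and that have been studied in the islets, rather than only in immune cells. They were PTPN2, CTSH, CLEC16A, DEXI, BACH2, ERBB3, TNFAIP3, SH2B3 and TCF19. Of the 108542 accessible regions in the table, 55 belonged to these genes. A promoter region overlapped the 2 kb on either side of the start of a protein-coding transcript of a gene, which gave 14 regions. A distal region was any other region whose midpoint lay within 100 kb of such a start, with no protein-coding start of another gene closer, which gave 41 regions. The rule for assigning regions uses positions alone.

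In ATAC-seq a transposase cuts exposed DNA and tags it with adapters, so that reads pile up over open chromatin. The libraries came from EndoC-βH3, a human fetal pancreas line with beta cell identity, immortalised by SV40 large T antigen and human telomerase transgenes that CreER recombinase can remove. The senescent group had received 4-hydroxytamoxifen, which activates CreER, for 3 weeks, and the non-senescent group was untreated. Each group had 3 libraries of 100000 cells, with the genotype of both labelled WT. All libraries come from a single line, so its genetic background, including its risk alleles, is shared by both groups, and loss of the transgenes, tamoxifen exposure and senescence cannot be told apart. The labels do not say whether the 3 libraries of a group were separate cultures.

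In type 1 diabetes the immune system destroys beta cells, and many risk loci hold genes of lymphocytes. A smaller set acts in the beta cell itself, where these genes set how strongly the cell answers cytokines and whether it survives them. PTPN2, TNFAIP3 and SH2B3 are brakes on inflammatory signalling. PTPN2 is a tyrosine phosphatase that removes phosphate from JAK and STAT proteins after interferon. TNFAIP3 encodes A20, a ubiquitin-editing enzyme that limits NF-kB, and SH2B3 encodes the adaptor LNK, which dampens cytokine receptors coupled to JAK2. BACH2 is a transcriptional repressor that pairs with small MAF proteins. CTSH is a lysosomal cysteine protease, CLEC16A regulates mitophagy through the ubiquitin ligase RNF41, and DEXI is its neighbour, whose function is less well known. ERBB3 is a neuregulin receptor that signals through its partner ERBB2. TCF19 is a chromatin-reading protein expressed at the transition from G1 to S phase and linked to beta cell proliferation.

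The table gave, for each region, a mean signal (normalised read counts averaged over all 6 libraries), the log2 fold change between the groups (log2 change below) with its standard error (SE), and an adjusted p-value, all from the DESeq2 fit of the authors. It held no value for a single library, so no level per library can be shown and no library could be left out. The table does not name the numerator of the fold change. It was read as senescent over non-senescent, which is the direction the study uses, and under this reading the strongest MKI67 promoter region, at a cell-cycle gene, had a log2 fold change of -0.53 (SE 0.097). Targets of p53 often rise in senescence, and only CCNG1 and GDF15 were looked at for this purpose. Their regions were mixed under this reading. The strongest CCNG1 region had -0.24 (SE 0.062, adjusted p = 5.4e-04), whereas a weaker one had 1.57 (SE 0.18) and the strongest GDF15 region had 0.46 (SE 0.099). Weaker GDF15 regions, with mean signals of 39.1 and 19.3, had 1.24 (SE 0.31) and 2.69 (SE 0.52). A weaker MKI67 region had -1.35 (SE 0.30). The direction given below for TCF19, itself a cell-cycle gene, is therefore not independent of that choice. To be called higher or lower, a region had to have an adjusted p-value under 0.05 and to differ by more than 1.5-fold, which is 0.58 on the log2 scale. Group levels given below were derived from the mean signal and the fold change on the assumptions that both groups weigh equally in the mean and that the fold change was not shrunken.

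The promoters of all 15 listed beta cell markers were accessible, with a median signal of 1186 per kb at the strongest region, against 686 over all genes with a promoter region. Of 6 immune markers, PTPRC, CD3E, MS4A1 and LYZ had no promoter region. The 3 alpha cell markers had a median of 139.9 signal per kb and the 2 delta cell markers 359.1. Among 4 exocrine markers, PRSS1 had no region and CEL had 52.2 signal per kb, but KRT19 had 737 and CPA1 1298, which is above the beta cell median, so the exocrine markers did not separate cleanly from those of beta cells. Regions were present at 1 of 3 endothelial and 1 of 3 mesenchymal markers. Over all regions the fold change moved with the signal, so that distal regions with a mean signal under 50 had a median log2 fold change of 0.32 and those above it -0.01. Each count below is therefore set beside the share over all regions of the same kind, and calls that did not outlast the removal of this trend are named.

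The sequences that carried the largest change at CLEC16A, BACH2, TNFAIP3, SH2B3 and TCF19 are shown first, as the plus strand of hg38 read 5′ to 3′. For regions over 300 bp the middle 300 bp are given, and of the TCF19 region only the coding bases. Capitals mark matches to the motifs described further below, on either strand. These 5 sequences lie at chr16:11113083-11113264 in intron 19 of CLEC16A, chr6:90195492-90195716 in intron 4 of BACH2, chr6:137861565-137861864 upstream of TNFAIP3, chr12:111445248-111445547 in intron 2 of SH2B3 and chr6:31159470-31159673 in exon 2 of TCF19, where the first 3 bases are the start codon.
CLEC16A intron 19, higher in senescent cells: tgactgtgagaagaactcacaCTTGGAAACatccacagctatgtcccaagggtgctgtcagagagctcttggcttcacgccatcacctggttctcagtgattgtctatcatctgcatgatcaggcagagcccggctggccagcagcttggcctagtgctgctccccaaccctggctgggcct
BACH2 intron 4, higher: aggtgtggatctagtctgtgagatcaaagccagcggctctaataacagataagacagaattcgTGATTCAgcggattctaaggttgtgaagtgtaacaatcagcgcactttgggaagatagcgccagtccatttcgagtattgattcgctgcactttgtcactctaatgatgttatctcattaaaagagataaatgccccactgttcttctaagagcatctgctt
TNFAIP3 upstream, higher: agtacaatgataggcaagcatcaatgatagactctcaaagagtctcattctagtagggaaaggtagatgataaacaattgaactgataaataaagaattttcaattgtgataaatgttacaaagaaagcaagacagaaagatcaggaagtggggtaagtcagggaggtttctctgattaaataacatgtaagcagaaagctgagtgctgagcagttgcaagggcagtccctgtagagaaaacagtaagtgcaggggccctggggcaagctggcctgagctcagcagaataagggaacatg
SH2B3 intron 2, higher: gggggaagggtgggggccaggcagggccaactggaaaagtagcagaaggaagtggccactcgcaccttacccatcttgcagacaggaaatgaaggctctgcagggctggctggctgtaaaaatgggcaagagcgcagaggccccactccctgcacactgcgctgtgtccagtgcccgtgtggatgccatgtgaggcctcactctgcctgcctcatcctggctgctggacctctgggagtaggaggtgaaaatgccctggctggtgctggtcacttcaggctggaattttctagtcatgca
TCF19 exon 2, lower: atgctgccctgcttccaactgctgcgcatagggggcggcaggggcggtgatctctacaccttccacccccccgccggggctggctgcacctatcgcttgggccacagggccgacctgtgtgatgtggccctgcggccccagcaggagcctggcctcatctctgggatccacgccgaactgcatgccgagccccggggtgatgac

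Another pair of sequences was picked after the values and matches had been seen, because both regions were called higher and hold the same run of letters, an AP-1 motif that overlaps a MAF recognition element. They lie at chr16:10984619-10984918 in intron 10 of CLEC16A and chr6:90285573-90285872 in intron 1 of BACH2.
CLEC16A intron 10, higher: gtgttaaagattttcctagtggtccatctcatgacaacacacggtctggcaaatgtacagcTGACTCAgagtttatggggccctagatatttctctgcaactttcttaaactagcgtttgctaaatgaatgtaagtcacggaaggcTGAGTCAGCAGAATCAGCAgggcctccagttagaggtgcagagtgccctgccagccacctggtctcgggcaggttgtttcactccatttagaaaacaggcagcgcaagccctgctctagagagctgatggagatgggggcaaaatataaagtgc
BACH2 intron 1, higher: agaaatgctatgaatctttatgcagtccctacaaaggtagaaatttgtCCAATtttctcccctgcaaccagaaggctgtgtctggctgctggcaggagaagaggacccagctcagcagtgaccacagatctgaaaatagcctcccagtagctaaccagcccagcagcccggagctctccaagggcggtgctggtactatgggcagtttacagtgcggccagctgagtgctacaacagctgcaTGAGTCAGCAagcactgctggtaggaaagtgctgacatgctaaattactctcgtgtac

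TCF19 was the only one of the 9 genes whose promoter accessibility fell past the fold limit in senescent cells. Both of its promoter regions were called lower, and they were the only called regions among the 14 promoter regions. Over all 20094 promoter regions in the table, 9.04% were called lower and 3.56% higher, so that 2 of 14 (14.3%) and 0 of 14 are counts close to what the table holds at large. In the DESeq2 results, 0 of the 14 were higher even at an unadjusted p-value under 0.05. The strong region (chr6:31157992-31159026) covers the main start, with a mean signal of 968. Its level was 1194 in non-senescent and 741 in senescent cells, a log2 change of -0.69 (SE 0.073, adjusted p = 3.4e-19). The weaker region (chr6:31159380-31159673) lies 353 bp further on and covers the first coding bases in exon 2. There the level was 97.6 in non-senescent and 20.6 in senescent cells, a log2 change of -2.25 (SE 0.28, adjusted p = 3.6e-14), which is 4.74-fold lower. The fall was steeper inside the gene than at its start, with a difference of -1.56 between both regions (combined SE 0.29). The call of the strong region rests on the fold change limit. Its value was -0.57 after removal of the trend on mean signal and -0.55 after removal of that on GC content, both still significant and just short of the limit. Both regions also lie within 2 kb of a start of CCHCR1, which is transcribed away from TCF19, so the loss cannot be assigned to TCF19 alone. TCF19 had no distal region of its own, since neighbouring genes with closer starts took 9 of the 11 regions within 100 kb.

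**Figure D1:**
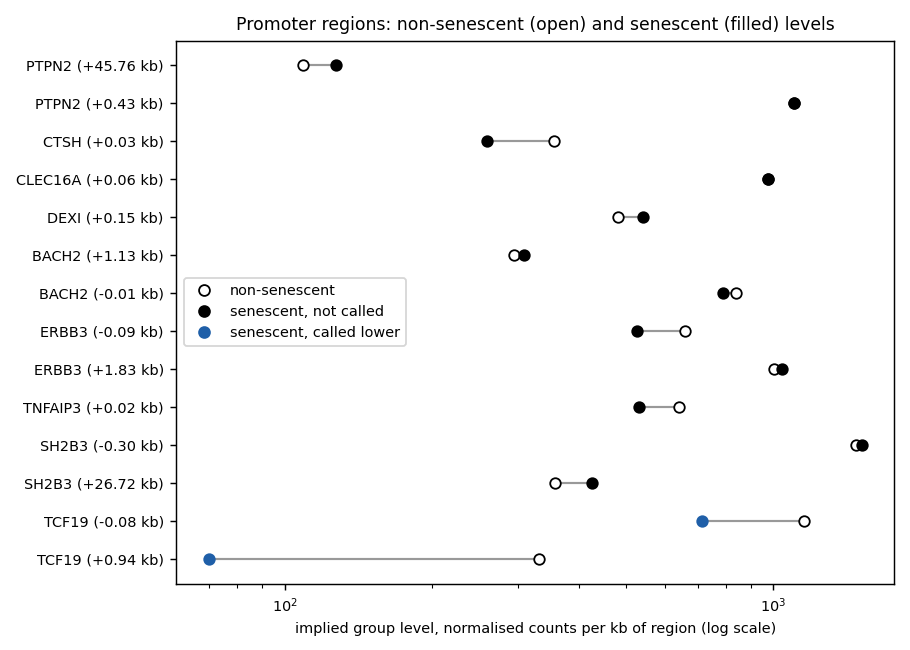
Levels derived for non-senescent (open) and senescent (filled) cells at the 14 promoter regions, in normalised counts per kb of region on a log axis, with the distance of each region from the main start of its gene. The TCF19 regions show the widest shifts to the left, and at PTPN2, CLEC16A, BACH2 and SH2B3 the open and filled points of the main region lie close together or coincide.

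The promoters of the signalling brakes PTPN2 and SH2B3 were strongly open and did not change beyond the fold limit. The PTPN2 promoter (chr18:12883249-12884364) had a mean signal of 1228 and a log2 change of -2.1e-04 (SE 0.068, 95% interval -0.13 to 0.13). The SH2B3 promoter (chr12:111405051-111406184) had the highest signal of the 14 regions, 1696, and a log2 change of 0.04 (SE 0.068, 95% interval -0.09 to 0.17). These intervals lie well inside the 1.5-fold limit on either side. At TNFAIP3 (chr6:137866431-137868129) the level was 1092 in non-senescent and 904 in senescent cells, a log2 change of -0.27 (SE 0.071, adjusted p = 5.8e-04). This change was significant but smaller than the fold limit, and its adjusted p was 0.069 without the trend on mean signal and 0.29 without that on GC content. Alternative starts of PTPN2 and SH2B3 had weaker regions, with log2 changes of 0.23 (SE 0.36) and 0.25 (SE 0.16), neither of which was significant.

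At CTSH and ERBB3 promoter accessibility was also significantly lower but by less than 1.5-fold. CTSH (chr15:78944556-78945469) had a log2 change of -0.46 (SE 0.12, adjusted p = 6.1e-04), with levels of 326 in non-senescent and 237 in senescent cells. Its 95% interval of -0.69 to -0.22 crosses the fold limit, so a fall of that size lay within its error. The main ERBB3 promoter region (chr12:56079042-56081100) had a log2 change of -0.32 (SE 0.067, adjusted p = 1.1e-05), with levels of 1355 and 1083. A second region in intron 1 of ERBB3, 607 bp away, had a value of 0.06 (SE 0.086), and the difference between both was 0.38 (combined SE 0.11). The small falls at CTSH and ERBB3 kept an adjusted p under 0.05 when either trend was removed. With both trends removed, the ERBB3 value was -0.13 with an adjusted p of 0.11. Without a fold limit, 4 of the 9 genes (44.4%) were significantly lower at their strongest promoter region, against 39.9% of all genes, which is a share near that of the table.

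CLEC16A and DEXI lie head to head, and each of their promoter regions is within 2 kb of a start of both genes. The region at the CLEC16A start (chr16:10944292-10944954) had a log2 change of -7.4e-04 (SE 0.083) at a mean signal of 648. The region at the DEXI start (chr16:10941860-10942783) had 0.17 (SE 0.10, adjusted p = 0.17) at a mean signal of 472. BACH2 had a region at its start (chr6:90296689-90297011), with -0.09 (SE 0.13), and one just inside the gene (chr6:90295147-90296286), with 0.07 (SE 0.11). None of these 4 regions was called, and for all of them the 95% interval lay inside the fold limit. Over the 12 promoter regions that were not called, the interval lay inside the limit for 10 and reached it for 2, the CTSH region and the weak alternative start of PTPN2. The median log2 change of the 14 promoter regions was -4.8e-04, beside -0.13 over all promoter regions.

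Per kb of region, the 9 promoters covered most of the range found among genes. SH2B3 stood at percentile 86.8 of all genes with a promoter region, PTPN2 at 74.1, the shared CLEC16A and DEXI region at 68.5 and TCF19 at 66.3. ERBB3 and TNFAIP3 were near the middle, at 43.3 and 42.8. CTSH at 21.1 and BACH2 at 20.6 came last, with 308 and 302 normalised counts per kb. This order takes for each gene the promoter region with the highest total signal. BACH2 had 815 per kb at the narrower region over its start, and ERBB3 had 1020 at its other region, so both would rank higher by those. The mean signal has no error in the table, so neighbours in this order, such as CTSH and BACH2, could not be compared against a spread.

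**Figure D2:**
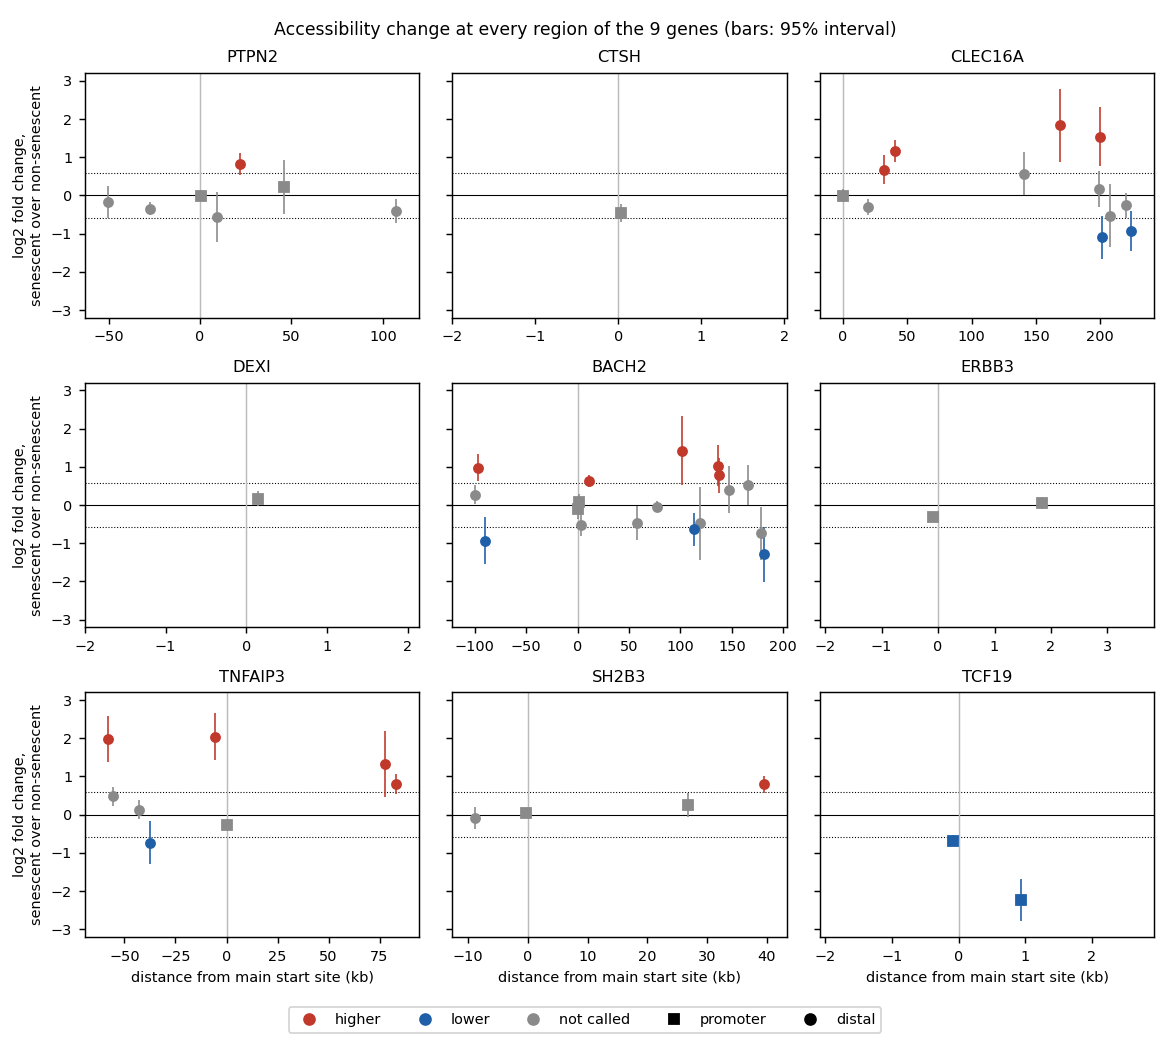
Log2 fold change (points) with its 95% interval (bars) at every region of each gene, against the distance in kb from the main start, in the direction of transcription. The points of promoter regions (squares) lie inside the fold limit (dotted lines) except at TCF19, while distal regions (circles) of CLEC16A, BACH2 and TNFAIP3 include called changes in both directions. The region of CLEC16A and that of DEXI are each drawn once, under the gene whose start is closer.

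Away from the promoters, accessibility changed at 21 of 41 regions. Here 15 regions (36.6%) were called higher and 6 (14.6%) lower in senescent cells. Of all 88448 distal regions, at any distance from a start, 18.1% were higher and 10.6% lower. No share is given for the 55158 of them within 100 kb. The share of higher regions was thus above that of the table, and no test of this difference was made, because the regions of a gene are not independent of each other. Signal bears on this count. Of the 17 member regions with a mean signal under 50, 7 were higher and 4 lower, where all such regions gave 21.3% and 6.16%. Of the 24 with more signal, 8 were higher and 2 lower, where the table gave 16.3% and 13.1%. The median log2 change of the 41 regions was 0.17, against 0.08 over all distal regions. For 13 of the 20 distal regions without a call the 95% interval reached the fold limit, so those regions were not shown to be stable. CLEC16A had 11 of the 41 regions, BACH2 16, TNFAIP3 7, PTPN2 5 and SH2B3 2, while CTSH, DEXI, ERBB3 and TCF19 had none.

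Most of these calls are moderate in size. When the 1.5-fold limit was put into the null of the Wald test, 4 of the 23 called regions of either kind remained. They were the CLEC16A intron 10 region, a pair of regions upstream of TNFAIP3, and the TCF19 exon 2 region. By that test 4.52% of all distal regions were higher and 1.95% lower, and of all promoter regions 0.851% were higher and 1.31% lower.

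**Figure D3:**
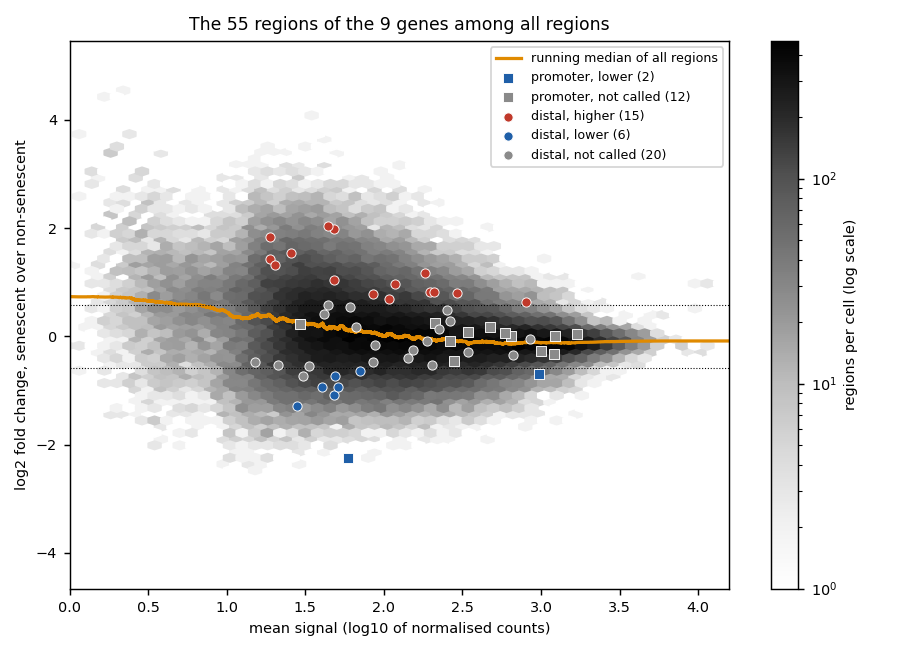
Log2 fold change against mean signal (log10 of normalised counts) for the 55 regions, drawn over the density of all 108542 regions, with dotted lines at the fold limit and the running median of all regions as an orange line. The TCF19 exon 2 region lies at the lower edge of the cloud, and 11 of the 21 called distal regions have a mean signal under 50, where the running median is above 0.

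TNFAIP3 showed the largest distal gains, at regions that all lie nearer to the start of another, not protein-coding, gene when such genes are counted. The region at -5.54 kb from its start (chr6:137861557-137861873, intergenic) had a level of 17.2 in non-senescent and 71.0 in senescent cells. Its log2 fold change was 2.04 (SE 0.31, adjusted p = 9.3e-10), a 4.12-fold rise. A second intergenic region at -58.1 kb (chr6:137809049-137809238) had levels of 19.6 and 77.2 and a log2 change of 1.98 (SE 0.31, adjusted p = 2.9e-09). The median mean signal of all distal regions was 76.8, so both regions were weak in non-senescent cells and near that median in senescent cells. Downstream of the gene, the regions at 77.8 and 83.2 kb had log2 changes of 1.32 (SE 0.44) and 0.81 (SE 0.13), with adjusted p-values of 0.0087 and 2.5e-08. The former lost its call without the trend on mean signal, at 1.02, and the latter when that on GC content was removed, at 0.56. A region at -37.7 kb was lower, at -0.73 (SE 0.28, adjusted p = 0.027). The strongest distal region, at -55.7 kb, had 0.48 (SE 0.13, adjusted p = 0.0013) and was not called. The promoter between these gains, with its value of -0.27, differed from the region at -5.54 kb by -2.32 (combined SE 0.32) across a gap of 4557 bp.

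At CLEC16A 4 distal regions were higher and 2 lower, all within introns of the gene. The largest change with good signal was in intron 10 (chr16:10984459-10985078), where the level was 113 in non-senescent and 255 in senescent cells, a log2 change of 1.17 (SE 0.15, adjusted p = 4.6e-14). A region 7485 bp before it, in intron 7 (chr16:10976612-10976973), rose less, by 0.68 (SE 0.19, adjusted p = 0.0017). Further into the gene the regions were weaker. In intron 19 (chr16:11113083-11113264) the level was 8.23 and 29.3, a log2 change of 1.83 (SE 0.48, adjusted p = 6.7e-04). Variants of a CLEC16A intron are associated with type 1 diabetes, and contacts of that part of the gene with the DEXI promoter have been described, but no variant position or contact was examined here. The distal region closest to the promoter, in intron 3, had the most signal (341) and a log2 change of -0.30 (SE 0.11, adjusted p = 0.015), which was not called.

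Intron 22 of CLEC16A held neighbouring regions that moved in opposite directions. The region at chr16:11144199-11144407 was higher, with levels of 13.1 and 38.2 and a log2 change of 1.54 (SE 0.39, adjusted p = 4.2e-04). At chr16:11145428-11145719, 1020 bp away, levels were 66.0 and 30.9 and the log2 fold change was -1.09 (SE 0.29, adjusted p = 6.3e-04). The difference between these neighbours was -2.63 (combined SE 0.49, from the SEs of both regions taken as independent). A region 361 bp on the other side of the first did not pass the test, at 0.17 (SE 0.24). The last region called lower, in intron 23 (chr16:11168603-11168876), had -0.93 (SE 0.27, adjusted p = 0.0022). These 3' regions are assigned to CLEC16A through starts of shorter protein-coding transcripts, since they lie over 100 kb from the main start.

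BACH2, the longest of the 9 genes at 370.3 kb, had 5 distal regions higher and 3 lower. The called change with the most signal was in intron 1 (chr6:90285361-90286084), 11.1 kb from the start. There the level was 626 in non-senescent and 973 in senescent cells, a log2 change of 0.64 (SE 0.077, adjusted p = 4.8e-15). Per kb this region was more open than either BACH2 promoter region, with 1104 against 815 and 302 normalised counts per kb. Its call was lost, at 0.52, when the trend on GC content was removed. Between it and the promoter, a region at 3.24 kb had -0.53 (SE 0.14, adjusted p = 0.0011) and was not called. The difference between both was -1.16 (combined SE 0.16).

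Within intron 4 of BACH2 the changes went both ways. A pair of regions 313 bp apart (chr6:90158889-90159802 and chr6:90160116-90160372) was higher, at 0.78 (SE 0.23) and 1.03 (SE 0.28). A weak region (chr6:90195492-90195716) had the largest rise of the gene, 1.43 (SE 0.46, adjusted p = 0.0067), with levels of 10.1 and 27.3, and it was not called without the trend on mean signal. Lower regions were at chr6:90183090-90183836, with -0.64 (SE 0.23, adjusted p = 0.014), and at chr6:90115590-90115935, with -1.29 (SE 0.37, adjusted p = 0.0019). All counted regions of intron 4 lie over 100 kb from the main start and are assigned through starts of shorter protein-coding transcripts. Upstream of the gene, a region at -96.8 kb (chr6:90393429-90393799) was higher, at 0.97 (SE 0.18, adjusted p = 5.9e-07), and one at -89.96 kb was lower, at -0.93 (SE 0.31, adjusted p = 0.0088). The strongest distal region of BACH2, in intron 3 with a mean signal of 855, had -0.04 (SE 0.071, 95% interval -0.18 to 0.10). The region inside the 100 kb limit that was most remote from any BACH2 start, at -99.4 kb, had 0.28 (SE 0.12). The nearest one beyond the limit, 100.1 kb from the closest BACH2 start on either side, had 0.19 (SE 0.21). Of the 21 regions in the body of BACH2, 7 were not counted because they lie past the limit or nearer to another gene, and 1 of these was higher and 1 lower.

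PTPN2 and SH2B3 each had a single called distal region, and both were higher. In intron 1 of PTPN2, 21.99 kb from the start, levels were 142 and 252 and the log2 fold change was 0.82 (SE 0.14, adjusted p = 7.6e-08). In intron 2 of SH2B3 (chr12:111444865-111445930), 39.5 kb from the start, levels were 213 and 369 and the log2 fold change was 0.79 (SE 0.12, adjusted p = 3.9e-10). The SH2B3 region also lies in an intron of ATXN2, which overlaps it. Both calls held without the trend on mean signal and without that on GC content. The strongest distal region of PTPN2 (chr18:12911019-12912244), with a mean signal of 659, had -0.34 (SE 0.087, adjusted p = 3.7e-04), below the fold limit. For SH2B3 the assignment by nearest start left out 13 of the 17 regions within 100 kb, of which 5 were higher and 1 lower. ERBB3 lost 16 of 18 in the same way, with 1 of these lower. Accessibility changes near these genes in a dense neighbourhood are hence only partly described by the regions counted here.

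Motif letters were sought on both strands in the 300 bp around the middle of each of the 55 regions. For regions under 300 bp this window runs past their ends, so a counted match can lie just outside the region. The AP-1 motif TGANTCA was in 6 of 41 distal regions (14.6%), of which 3 were called higher and 3 were not called, and in 11.1% of all distal regions. The MAF recognition element TGCTGANTC, the kind of site that BACH proteins bind with small MAF partners, was in 3 distal regions, 2 higher and 1 lower, against 2.35% of all distal regions. The higher regions were those of CLEC16A intron 10 and BACH2 intron 1 printed above. Of all higher, lower and uncalled distal regions, 4.56%, 1.52% and 1.91% held the MAF element. For AP-1 these shares were 15.0%, 10.2% and 10.2%. Both motifs were thus more frequent among higher distal regions at large, and not only at these genes. The CLEC16A sequence holds TGACTCA, then TGAGTCA overlapping GAGTCAGCA, directly followed by GAATCAGCA. The BACH2 sequence holds the same overlap of TGAGTCA and GAGTCAGCA. The interferon-stimulated response element GAAANNGAA was in 5 distal regions, 2 higher, 1 lower and 2 not called, against 13.2% of all distal regions. It was in 11.6% of all higher, 8.60% of all lower and 14.3% of all uncalled distal regions. The RFX motif GTTNCCNNG was in 11 distal regions and the CCAAT box in 11, against 15.8% and 30.1% of all distal regions. These matches describe letters and not binding.

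At the promoters, the NF-kB motif GGGANTTTC was found in 1 of the 14 regions, that of TNFAIP3, against 0.95% of all promoter regions. NF-kB is known to induce TNFAIP3, and A20 in turn restrains NF-kB. The CCAAT box was in 4 promoter regions and the CTCF core AGNNGGCGC in 4, against 24.2% and 14.4% of all promoter regions. The E2F motif, sought only as TTTNNCGC, was in none of the 55 windows, TCF19 included, while 7.84% of all promoter regions hold it. E2F sites with other letters would be missed by this search, so it does not show that TCF19 lacks one. The TNFAIP3, SH2B3 and TCF19 sequences printed above have no match to any of the 11 motifs sought.

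The partners of the 9 genes were followed at the strongest promoter region of each. Each list is described by its counts and median, without a test of the list. Over the 15493 genes with a promoter region, 1.39% were called higher and 7.02% lower, with a median log2 change of -0.14. Of 16 genes for PTPN2 substrates and interferon receptor signalling, 0 were called and the median was -0.13. Of 15 mitophagy genes around CLEC16A and 11 BACH, NRF and small MAF genes, 0 were called either, with medians of -0.08 and -0.15. Without the fold limit, 5, 5 and 4 genes of these lists were significantly lower and 1, 1 and 2 higher, and at an unadjusted p-value under 0.05 there were 7, 6 and 5 lower genes.

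The partner list of ERBB3 had 3 lower calls, as many as the list of G1/S genes described below. Of 14 ERBB receptors and ligands, 3 were lower (21.4%) and 0 higher, beside 7.02% and 1.39% of all genes. They were the ligand genes EREG, with a log2 change of -1.10 (SE 0.20), and AREG, with -0.74 (SE 0.10), and the receptor gene ERBB4, with -0.82 (SE 0.16). The median of this list was -0.11, beside -0.14 over all genes. Of 16 A20 partners and NF-kB regulators with a promoter region, BIRC3, an inhibitor of apoptosis, was lower at -0.75 (SE 0.083), and TNFRSF1A and TNIP3 had no promoter region. The median of that list was -0.10. Among 13 cathepsins and their inhibitors, CTSV was lower at -0.80 (SE 0.088), and CTSS had no region. Among 13 SH2B adaptors with the receptors and kinases they bind, KIT was lower at -0.61 (SE 0.071). The medians of these latter lists were -0.06 and -0.05.

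**Figure D4:**
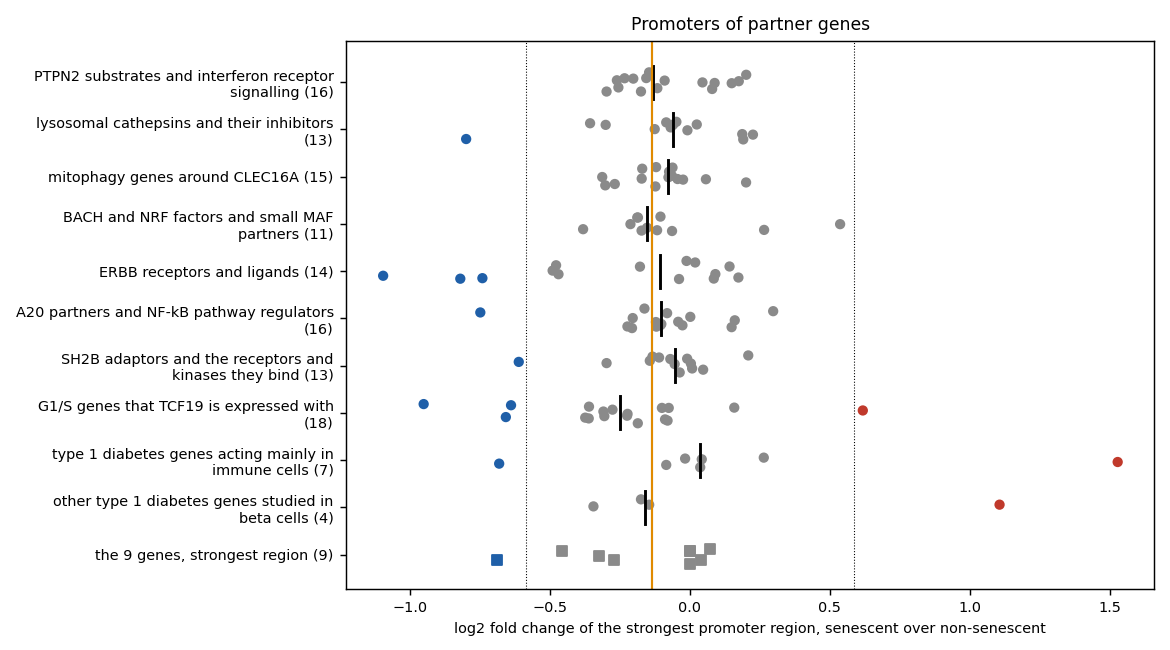
Log2 fold change at the strongest promoter region of each partner gene, by list, with the median of each list (black bar), the median of all genes (orange line) and the fold limit (dotted lines). Called genes are red (higher) or blue (lower), and the bottom row shows the 9 genes themselves, where TCF19 is the called one. The vertical scatter within a row has no meaning.

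TCF19 was set beside G1/S genes it is expressed with, whose values ran widely, from -0.95 to 0.62. Of these 18 genes, 3 were called lower (16.7%) and 1 higher, and 12 (66.7%) were significantly lower without the fold limit, against 39.9% of all genes. The lower genes were E2F2, a transcription factor of S phase entry, at -0.95 (SE 0.10), TYMS, which makes thymidylate, at -0.66 (SE 0.066), and UHRF1, which maintains DNA methylation, at -0.64 (SE 0.10). The strong TCF19 promoter region, at -0.69, lay between E2F2 and TYMS. CCNE1, the gene of cyclin E1, was higher at 0.62 (SE 0.14). The median of the list was -0.25, so TCF19 fell more than most of these genes.

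Type 1 diabetes genes that act mainly in immune cells were set beside the 9 genes. Of 21 such genes, 7 had a promoter region in the table and 14 had none, among them PTPN22, IL2RA, CTLA4, UBASH3A and CD226, whereas all 9 islet genes had one. Both lists were drawn up from general knowledge of where the genes act, with earlier results on these data known, so this contrast is a description. Of the 7, IL7R was higher at 1.53 (SE 0.15) and IKZF4 lower at -0.68 (SE 0.12), with a median of 0.04. Among 4 other type 1 diabetes genes studied in beta cells, INS was higher at 1.11 (SE 0.037), at a region of IGF2 and INS-IGF2 as well, and the other three were not called, with a median of -0.16 over all 4.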

How the data were processed

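Accessibility was measured by ATAC-seq in 3 senescent and 3 non-senescent EndoC-βH3 libraries, grouped by the labels. By the study's methods, the authors used Trim Galore and cutadapt for trimming and Bowtie2 for alignment to hg38. Mitochondrial and duplicate reads (Picard) were dropped, and the transposase offset was corrected with deepTools. Peaks came from MACS2, their union was counted with bedtools, and the authors then ran DESeq2, whose version is not given in the sources used here. These steps suit ATAC-seq.

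The deposited mean signal is the authors' average of counts divided by DESeq2 size factors. The deposited log2 fold change and SE, the Wald score, and the p-value and adjusted p-value are those of the authors' model. For all 108542 regions the adjusted p-value matched a Benjamini-Hochberg adjustment of the p-value within 1e-06. Depth per library cannot be read from the table, so precision is given as the SE, and 95% intervals are normal intervals from it. No test of replicates could be run.

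Here, Python 3.11.15 with pandas 2.3.3, numpy 2.4.6 and SciPy 1.17.1 assigned regions to GENCODE 44 start sites, wrote starts 1-based and read sequences from hg38. Differences between regions carry a combined SE that takes regions as independent. Trends were running medians over 1000 regions on each side. Alternatives were a stricter p-value, no fold limit, a Wald test with the 1.5-fold limit in its null, a mean signal of at least 50, centring, removal of trends, start sites of all genes, and other windows and limits. The Wald test, p-value adjustment, calls and removal of a trend on mean signal were tested on simulated fold changes. The other steps were not tested in this way. Named were every called region and the strongest regions of each gene, at most 3 called genes of each partner list, and the sequences of the largest called change per gene, of which 1 is not reported here. Regions and genes named beyond this were chosen after their values were seen. The members, gene lists and motifs were chosen with earlier results on these data known.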

Additional observations from a re-analysis of the deposited data

How the results depend on the processing

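The counts of promoter and distal regions called were recomputed 46 times under alternative settings, and 32 times the count stayed within 1.5 times of the value reported. Not all of these could have moved, since stricter thresholds and narrower windows cannot raise the 0 promoter regions called higher. Promoter regions called higher went from 0 to 1 with start sites of all genes. Promoter regions called lower went from 2 to 5 with no fold limit, and to 1 with the test of a fold change over 1.5, with the trend on mean signal, on GC content or on both removed, and with a 0.5 kb window. Distal regions called higher went from 15 to 3 with the test of the fold change, 8 at a mean signal of at least 50, and 5 with start sites of all genes, where 12 distal regions were left. Distal regions called lower went from 6 to 10 with no fold limit, 0 with the test of the fold change (0 also at an unadjusted p-value under 0.05), 2 at a mean signal of at least 50 and 1 with start sites of all genes.

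With the trend on mean signal, on GC content or both removed, the PTPN2 promoter changed sign to 0.12, 0.12 and 0.17, and the promoter region shared by CLEC16A and DEXI to 0.14, 0.12 and 0.19. The region nearest to the DEXI start gave 0.17 and that nearest to the BACH2 start -0.090, and the strongest distal region of BACH2 changed to 0.070 without the trend on mean signal. None of these values was called. The strong TCF19 promoter region was -0.50 without both trends and lost its call. The cause was not tested. Of 65 recomputed values of the strongest regions, 50 kept their direction and their call, which takes the p-value and the fold limit together. Among these 50, the adjusted p-value alone rose past 0.05 in 8 (TNFAIP3 and ERBB3 promoters, PTPN2 and CLEC16A distal regions) and fell below it in 2 (BACH2 and SH2B3 promoters, without both trends). The share that held overstates stability, because centring moved each value by only 0.007. The region nearest to a start was also often the strongest one, and DEXI shares its strongest region with CLEC16A. Of the 23 called regions, 20 kept their call without the trend on mean signal, 20 without that on GC content, 12 at a mean signal of at least 50 and 4 in the test of the fold change. With start sites of all genes 9 kept it, since the other 14 were no longer assigned to the same gene: all 5 of TNFAIP3, 6 of 8 of BACH2, 2 of 6 of CLEC16A and the 1 of SH2B3.

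Removal of both trends together and a distal limit of 200 kb were added after the data had been seen. No paired analysis was possible because values per library are missing from the table, and no replicate was left out for the same reason. Depth per library is not in the table, and weak regions have wide intervals.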
